A study of Mus musculus with 60 samples.

Results

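Oxidative phosphorylation was described through 105 genes of the mouse hippocampus, of 47643 gene symbols in the table. The genes were chosen by name: symbols that start with Nduf, Uqcr, Atp5 or Cox4 to Cox8, the Sdh subunit genes, Cyc1, and the protein genes of the mitochondrial genome. Of 110 matching symbols, 4 pseudogene symbols were dropped and 1 (Cox8c, listed at a mean of 0 TPM) lay below the required mean of 1 TPM. TPM is a transcript level scaled by gene length and by the library total, so that every library has the same sum. The lowest gene kept was Cox7b2 at a mean of 1.35 TPM. The genes comprise 92 nuclear and 13 mitochondrial genes: for complex I 36 nuclear and 7 mitochondrial, for complex II 4 nuclear, for complex III 9 and 1, for complex IV 12 and 3, and for complex V 15 and 2. The other nuclear genes were 7 Ndufaf assembly factors of complex I, 7 minor isoforms of complex IV (Cox4i2, Cox6a2, Cox6b2, Cox7a1, Cox7b2, Cox8b, and Ndufa4l2), and Atp5s and Atp5sl, which carry the name but are not subunits of the enzyme.

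Mitochondria pass electrons from NADH through complex I, or from succinate through complex II, to ubiquinone, then through complex III and cytochrome c to complex IV, which reduces oxygen. Complexes I, III and IV pump protons, and complex V, the ATP synthase, uses the gradient to make ATP. Complex II is coded wholly by nuclear genes, while the other complexes combine nuclear subunits with a few core subunits transcribed inside the mitochondrion, and neurons depend heavily on this pathway.

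The libraries came from hippocampus of female mice aged 2 months, sampled 2, 4, 6 or 8 weeks after an injection. CAC mice received melanoma cells that cause cachexia, NCAC mice melanoma cells that do not, and Con mice a mock injection. Cachexia is a wasting syndrome of cancer. There were 4, 5, 5 and 7 CAC libraries at these times, 5, 5, 4 and 5 NCAC libraries, and 5 Con libraries at each time, 60 in all. The sample labels name the strain C57BL6/J, whereas the design text names NCI Ath/nude, a line that would lack most T cells, and the extract protocol mentions another tumour line and time that match no group. The labels call the libraries biological replicates without naming animals, and the p-values below reflect library-to-library spread, which may be technical. Recovered depth was 32388197 to 42047145 reads per library. All 14 principal-neuron markers checked were in the table and passed the filter on low values. In 10 libraries markers of striatum or of erythrocytes stood apart, and results that change without them are given with their values. In bulk tissue, fewer cells of a type and less RNA per cell cannot be told apart.

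The 2 genomes contributed very unequal amounts of RNA. The 13 mitochondrial genes made up 16.3% to 26.5% of all TPM, with a median of 21.7%, and the 92 nuclear genes 1.13% to 1.92%, with a median of 1.56%. Per length, mt-Co1, the catalytic subunit of complex IV, was the highest gene at a mean of 50600 TPM, and mt-Nd6, a core subunit of complex I, was the lowest mitochondrial gene at 156 TPM. Among nuclear genes the ATP synthase alpha subunit gene Atp5a1 had the highest mean, 884 TPM. The leading nuclear gene of complex IV was Cox4i1, a regulatory subunit that binds ATP, at 659 TPM. Ndufb9, an accessory subunit of complex I, led its complex at 457 TPM, Sdha, the flavoprotein of complex II, had 360 TPM, and Uqcrc2, a core protein of complex III, had 317 TPM.

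For each tissue isoform pair the widely expressed form was far above the minor one in hippocampus. Mean levels were 659 TPM for Cox4i1 and 2.86 for Cox4i2, 427 for Cox6a1 and 5.34 for the muscle form Cox6a2, 503 for Cox6b1 and 4.22 for the testis form Cox6b2, 310 for Cox7a2 and 2.53 for the muscle form Cox7a1, and 580.5 for Cox8a and 1.92 for Cox8b. Ndufa4, a complex IV subunit despite its name, had 316 TPM against 4.92 for Ndufa4l2. The 3 genes that code the same c-ring subunit of ATP synthase were closer, with 192 TPM for Atp5g3, 141 for Atp5g2 and 64.4 for Atp5g1.

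**Figure D1:**
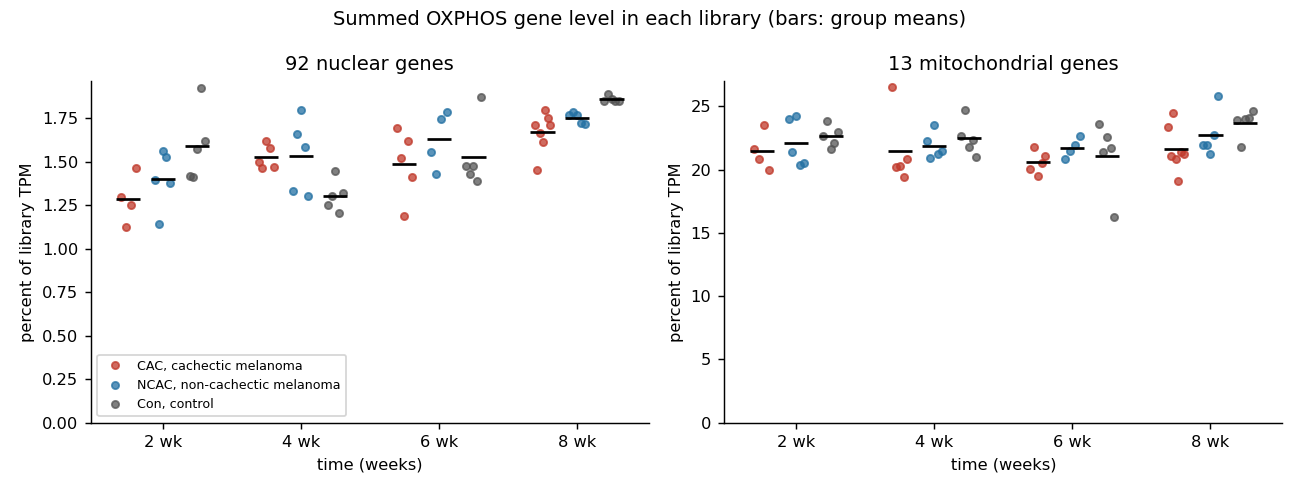
Summed level of the 92 nuclear genes (left) and the 13 mitochondrial genes (right) as a percent of library TPM, by weeks after injection; each point is a library, colours are the groups and bars are group means. The 5 nuclear values of Con at 8 weeks sit together at 1.85 to 1.89%, above every 8-week CAC and NCAC library.

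In the summed nuclear genes the order of the groups changed with time. At 2 weeks the nuclear share was 1.28% ± 0.141 (SD, n = 4) in CAC, 1.40% ± 0.164 (SD, n = 5) in NCAC and 1.59% ± 0.208 (SD, n = 5) in Con. At 4 weeks Con was lowest, with 1.31% ± 0.0899 (SD, n = 5) against 1.53% ± 0.0686 (SD, n = 5) in CAC. At 8 weeks the shares were 1.67% ± 0.113 (SD, n = 7) in CAC, 1.75% ± 0.0310 (SD, n = 5) in NCAC and 1.86% ± 0.0184 (SD, n = 5) in Con, and the ranges of CAC (1.45 to 1.80%) and Con (1.85 to 1.89%) did not overlap. The mitochondrial share at 8 weeks was 21.6% ± 1.77 (SD, n = 7) in CAC and 23.7% ± 1.12 (SD, n = 5) in Con, with overlapping ranges.

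Among the main nuclear subunits, the sums of complex IV differed most between CAC and Con, relative to their level, at 2, 4 and 8 weeks, and those of complex II least. The 12 main nuclear genes of complex IV summed to 2918 ± 571 TPM (SD, n = 4) in CAC and 4116 ± 874 (SD, n = 5) in Con at 2 weeks, to 3900 ± 251 and 3006 ± 374 (SD, n = 5 each) at 4 weeks, and to 4567 ± 583 (SD, n = 7) and 5393 ± 46.5 (SD, n = 5) at 8 weeks. The 4 genes of complex II summed to 763 ± 27.9 in CAC and 748 ± 31.0 in Con at 2 weeks, and to 767 ± 7.05 in CAC and 745 ± 12.2 in Con at 8 weeks (SD, same n). The mitochondrial genes had another order at 8 weeks: the sum of complex V was 29960 ± 2760 TPM (SD, n = 7) in CAC and 40160 ± 1040 (SD, n = 5) in Con, and that of complex IV 115400 ± 10500 and 117300 ± 4260 (SD, same n). The complex V sum holds 2 genes, mt-Atp6 and mt-Atp8, and neither passed the test described below at 8 weeks. Of these genes, mt-Atp8 had 7630 to 9101 TPM in these Con libraries against a median of 1349 in the 55 others. The genes of complex II had a median length of 2744.5 bases against 1139 bases for the main nuclear genes of complex IV.

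Gene length accompanied these swings throughout. The nuclear genes had a median length of 1423 bases and the mitochondrial genes 784, against 3738 for the 15608 genes tested, and 82 of the 92 nuclear genes were shorter than that median. A length slope was computed for each library over the other tested genes, as the change in log2 level, relative to the mean of all libraries, per doubling of gene length. It ran from -0.114 to 0.164. The nuclear share followed it closely, with Pearson r = -0.967 and Spearman rho = -0.967 over the 60 libraries (permutation p = 1e-05 for each, the smallest that the resamples can give, adjusted p = 1.33e-05 over 4 relations). Without the 2 libraries farthest from the median slope r was -0.963, and on deviations from the group means, which compares libraries within groups, it was -0.933. For the mitochondrial share the relation was weak (r = -0.240, permutation p = 0.0651; rho = -0.285, permutation p = 0.0271; adjusted values the same), and within groups r was -0.091. Both measures of each relation come from the same libraries, so shared depth and library total enter both.

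**Figure D2:**
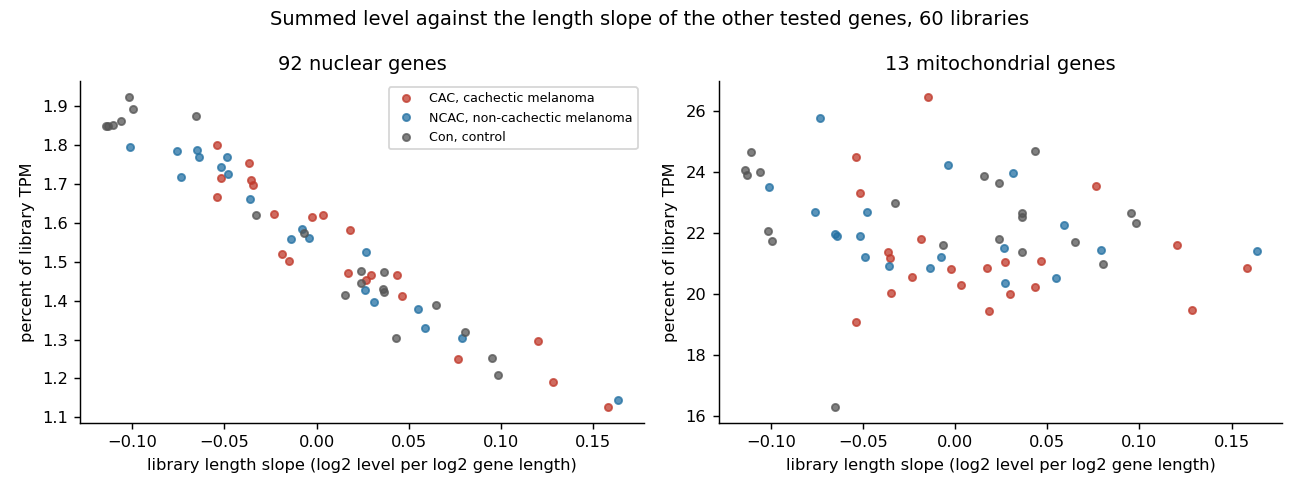
Percent of library TPM in the 92 nuclear genes (left) and the 13 mitochondrial genes (right) against the length slope of the other tested genes, 1 point per library, coloured by group. The nuclear points lie along a falling line with r = -0.967, whereas the mitochondrial points scatter with r = -0.240.

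The groups differed in this slope. At 8 weeks the slopes of Con were -0.114 to -0.0994 and those of CAC -0.0539 to 0.0271, so that the ranges did not overlap and slope and group cannot be told apart by any library. At 2 weeks CAC ran from 0.0298 to 0.158 and Con from -0.102 to 0.0364. Pairwise comparisons with called genes (defined below) are therefore given as deposited. They are also given after a trend on GC content and length was removed from every library.

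Genes were tested with limma on log2(TPM + 0.5) in a single fit of 12 group means, adjusted by Benjamini-Hochberg over all 15608 genes, and a gene is called when the adjusted p is under 0.05. Fold changes on this scale understate those of low genes. All 105 genes entered the fit. Between any of the 12 groups, 81 of them were called by the F test, where 47.5% of all tested genes were. These were 34 of the 36 nuclear genes of complex I, 3 of 4 of complex II, 8 of 9 of complex III, 11 of 12 of complex IV and 12 of 15 of complex V, but 5 of 13 mitochondrial genes. The smallest p-values were those of Ndufb6 (limma, adjusted p = 1e-05), Uqcrq, Cox5b, Atp5g3 and Ndufb4.

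At 2 weeks 33 of the 105 genes were lower in CAC than in Con and none was higher, with a background of 3.7% of all tested genes called, 1.98% lower and 1.72% higher. The genes called were 14 nuclear genes of complex I, 5 of complex III, 7 of complex IV and 5 of complex V, the assembly factor gene Ndufaf2, and mt-Nd3. None of the 4 genes of complex II was called, nor any minor isoform. The median log2 difference was -0.37 for the nuclear and -0.09 for the mitochondrial genes, beside 0.06 for all tested genes.

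Ndufb6, an accessory subunit of the membrane arm of complex I, had 62.1, 70.3, 77.4 and 117 TPM in CAC, 107, 63.4, 102, 113 and 105 in NCAC, and 108, 110.4, 133, 182 and 138 in Con. A single CAC library reached the range of Con. Its log2 difference was -0.73 ± 0.165 (SE, limma, adjusted p = 0.0190). Uqcrq, a small subunit of complex III, had 7.11, 11.9, 18.2 and 39.0 TPM in CAC and 26.9, 33.1, 39.7, 94.1 and 52.4 in Con. Its log2 difference of -1.47 ± 0.348 (SE, limma, adjusted p = 0.0248) was the largest of the called genes at this time, and its highest CAC library lay inside the Con range. Ndufa5, a subunit of the peripheral arm of complex I, had 70.9, 45.7, 71.1 and 80.9 TPM in CAC and 91.4, 96.8, 108, 132 and 116 in Con, without overlap. Ndufc2 changed by -0.48 ± 0.107 and Ndufaf2 by -0.55 ± 0.128 (SE, limma, adjusted p = 0.0190 and 0.0241). Of the mitochondrial genes, mt-Nd3, a core subunit of complex I, had 1907, 1128, 2029.8 and 2104 TPM in CAC and 2594, 3053, 3764, 4854 and 3850.0 in Con, a difference of -1.02 ± 0.267 (SE, limma, adjusted p = 0.0308) between ranges that did not overlap.

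The shorter the nuclear gene, the lower it tended to be in CAC at this time. The 29 genes under 1000 bases had a median log2 difference of -0.59, the 34 from 1000 to under 2000 bases -0.47 and the 29 longer ones -0.09. All tested genes of the same lengths had medians of -0.34, -0.08 and 0.08. Across the 92 nuclear genes the log2 difference went with log2 length at r = 0.575, a description over genes that share the same libraries, and at r = 0.065 over the 90 with a value after the trend was removed. With the trend removed 9 genes were called, against 0.971% of all genes. Of these, 8 were among the 33: Ndufa1, Ndufb6, Ndufa5 and Ndufa12 of complex I, Uqcr11 and Uqcrq of complex III, and Atp5j and Atp5e of complex V. The ninth, Sdhd, a membrane anchor of complex II, was higher in CAC (0.20, limma, adjusted p = 0.0471). Uqcrq then differed by -1.44 (limma, adjusted p = 0.0280).

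These 2-week calls depended on single libraries, and the share of all genes called in the fits that follow is not given here. The count was 0 without CAC replicate 1, without CAC replicate 2, without Con replicate 4 or without Con replicate 5, was 20 without CAC replicate 4 or Con replicate 3, and was 52 without CAC replicate 5. It was also 0 when only the CAC and Con libraries of 2 weeks were fitted, or without the libraries rich in striatal or blood genes, of which CAC replicate 1 belongs to this comparison. That library had the highest summed striatal level of its group, 2382 TPM against a lowest of 202. Thalamic marker genes moved with the same contrast: 6 of 11 were called higher in CAC, with summed levels of 163 to 572 TPM in CAC and 126 to 158 TPM in Con, and their part in the result was not tested.

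At 4 weeks the direction was the opposite. Of the 105 genes 4 were higher in CAC than in Con and none was lower, with 0.801% of all tested genes called, 0.487% higher and 0.314% lower. With mitochondrial genes out of the library total the split was 3 higher and 1 lower. Cox4i1 had 654, 657, 707, 762 and 709 TPM in CAC, 580.4, 653, 671, 679 and 623 in NCAC, and 525, 574, 569, 524 and 554 in Con. All CAC libraries lay above all Con libraries, and the log2 difference was 0.34 ± 0.0721 (SE, limma, adjusted p = 0.0243). Ndufb4, an accessory subunit of complex I, had 70.9 to 102 TPM in CAC and 46.3 to 68.7 TPM in Con, a difference of 0.65 ± 0.163 (SE, limma, adjusted p = 0.0427). Ndufb9 and the c-ring gene Atp5g2 differed by 0.42 ± 0.106 and 0.31 ± 0.0806 (SE, limma, adjusted p = 0.0442 and 0.0460).

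The nuclear median at 4 weeks was 0.21, and the lengths ran the other way, with medians of 0.42, 0.29 and 0.11 from the shortest to the longest class and r = -0.376 with log2 length. With the trend removed 4 genes were called, against 1.42% of all genes, of which Cox4i1, Ndufb4 and Atp5g2 were the same. No gene was called without CAC replicate 2 or 4 or without Con replicate 1, 4 or 5, 1 without CAC replicate 3, and 8 without CAC replicate 5. Without the libraries rich in striatal or blood genes, which include 3 of the 5 CAC libraries, none was called either. Choroid plexus markers also differed at 4 weeks, with summed levels of 335.6 to 2470 TPM in CAC and 3353 to 6267 TPM in Con, without overlap. Their median log2 difference was -2.30, none of the 12 was called, and their part in the result was not tested. At 6 weeks limma called none of the 105 genes, with 0.25% of all genes called, and voom called none of them either. At an unadjusted p under 0.05 there were 4 of the 105 genes and 1881 of all 15608 genes, a larger share. The smallest p-values at 6 weeks were those of Atp5d, the delta subunit of ATP synthase (-0.31 ± 0.130), and Ndufv1 (0.11 ± 0.0511, SE, limma, adjusted p = 0.313 and 0.363).

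**Figure D3:**
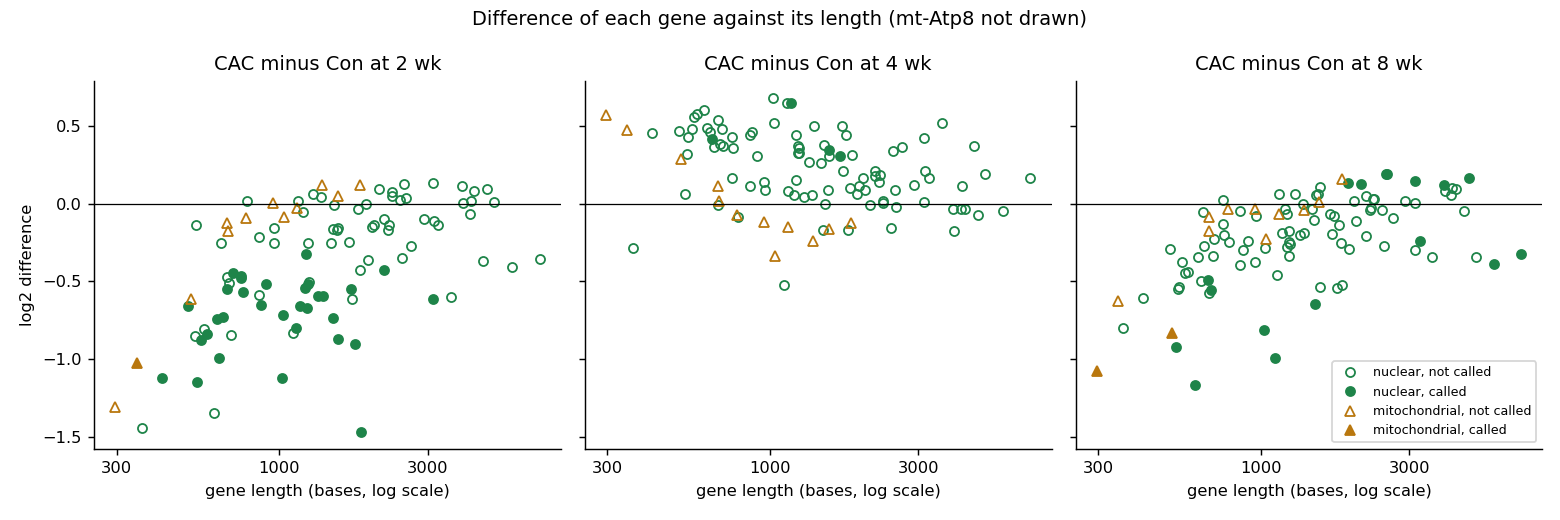
Log2 difference of CAC minus Con for each gene against gene length on a log axis, at 2, 4 and 8 weeks; circles are nuclear and triangles mitochondrial genes, filled where called. Short genes lie lowest at 2 and 8 weeks and highest at 4 weeks, with nuclear medians under 1000 bases of -0.59, -0.37 and 0.42. mt-Atp8 is not drawn.

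At 8 weeks genes were called in both directions. Of the 105, 7 were higher and 12 lower in CAC than in Con, with 14.5% of all tested genes called, 11.3% higher and 3.2% lower. With median-of-ratios scaling the split was 1 higher and 11 lower, and with mitochondrial genes out of the library total 3 higher and 9 lower. Those higher as deposited were Ndufv1, Ndufs1 and Ndufa9 of complex I, Sdha of complex II, Uqcrc2 of complex III, and Atp5a1 and Atp5c1 of complex V. Those lower were mt-Nd6, mt-Nd4l, Ndufc1, Ndufb2, Ndufab1, Ndufa3 and Ndufaf2 for complex I, Sdhc of complex II, Cox5a, Cox7a1 and Cox6b2 for complex IV, and Atp5k of complex V. The median was -0.20 for nuclear and -0.08 for mitochondrial genes, beside 0.05 for all tested genes. Under 1000 bases 0 of 29 nuclear genes were higher and 4 lower, where 0.834% and 11.6% of tested genes of that length were. From 1000 to under 2000 bases 1 of 34 was higher and 3 lower, against 3.16% and 5.13%. From 2000 bases 6 of 29 were higher and 3 lower, against 13.5% and 2.27%.

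Ndufv1 (chr19:4007384-4012806), which carries the flavin that takes electrons from NADH, had a lowest, median and highest value of 187, 199.8 and 202 TPM in CAC. It had 190.5, 182, 201, 189 and 167 in NCAC and 168, 180.3, 168, 172 and 175 in Con. Every CAC library lay above every Con library, and the log2 difference was 0.19 ± 0.0473 (SE, limma, adjusted p = 0.00675). Uqcrc2 had 286, 314 and 358 TPM as lowest, median and highest in CAC and 274, 285, 271, 269 and 294 in Con, which overlapped slightly, for a difference of 0.19 ± 0.0504 (SE, limma, adjusted p = 0.0104). Atp5a1, which forms the catalytic hexamer of ATP synthase with the beta subunit, had 852, 889 and 944 TPM in CAC and 808, 833, 779, 791 and 817 in Con, without overlap. Its difference was 0.15 ± 0.0395 (SE, limma, adjusted p = 0.0126). Those of Atp5c1, the central stalk, and Ndufa9 were both 0.13, that of Ndufs1, the large iron-sulfur subunit, 0.17, and that of Sdha 0.12 (limma, adjusted p = 0.0146 to 0.0268).

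Within complex II the called subunits went in opposite directions as deposited. Sdha was not called higher with the GC and length trend removed or with median-of-ratios scaling. Sdhc was still called lower with the trend removed. Sdha had 341, 358 and 372 TPM as lowest, median and highest in CAC and 319, 333, 339, 323 and 330.4 in Con. Sdhc, a membrane anchor that holds the quinone site, had 63.6, 70.8 and 75.4 TPM in CAC, 74.96 to 81.2 in NCAC, and 84.3, 85.9, 85.5, 77.4 and 81.9 in Con. No CAC library of Sdhc reached the Con range, and it differed by -0.24 ± 0.0698 (SE, limma, adjusted p = 0.0177). Sdhb, the iron-sulfur subunit, and Sdhd differed by -0.04 and 0.07 and were not called.

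Ndufc1, a small accessory subunit of complex I, had 20.7, 31.9 and 40.8 TPM as lowest, median and highest in CAC, 42.7, 42.5, 32.8, 39.8 and 47.9 in NCAC, and 53.7, 50.9, 51.8, 48.3 and 45.7 in Con. CAC and Con did not overlap, and the difference was -0.65 ± 0.191 (SE, limma, adjusted p = 0.0197). Ndufb2 and Ndufab1, the mitochondrial acyl carrier protein, differed by -0.39 ± 0.117 and -0.32 ± 0.0998 (SE, limma, adjusted p = 0.0227 and 0.0248). Their lengths of 5628 and 6883 bases are unions of all annotated exons, which can be longer than a single transcript. Their within-group SD of log2 level did not fall with the trend removed (0.204 to 0.236 and 0.173 to 0.221). Whether transcript length plays a part was not tested. Ndufaf2 differed by -0.49 ± 0.112, Cox5a, a nuclear subunit of complex IV, by -0.55 ± 0.173, and Cox7a1 by -0.92 ± 0.285 (SE, limma, adjusted p = 0.00446, 0.0264 and 0.0249). Cox7a1 and Cox6b2 were near the floor of the table, with 9 to 36 and 16 to 102 reads per library of CAC or Con at 8 weeks.

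With the GC and length trend removed, 16 genes were called at 8 weeks, 10 higher and 6 lower, against 9.56% of all genes. Of the 19, 11 were called again in the same direction: Ndufv1, Ndufa9, Uqcrc2, Atp5a1 and Atp5c1 higher, and mt-Nd6, Ndufc1, Ndufb2, Ndufab1, Sdhc and Cox6b2 lower. Ndufaf2 (-0.20, limma, adjusted p = 0.185), Cox5a (-0.30, 0.0541), mt-Nd4l (-0.41, 0.200), Cox7a1, Ndufa3, Atp5k, Ndufs1 and Sdha no longer passed. Ndufb9 (0.29), Ndufa8, Ndufc2, Cox4i1 and Cox7a2l were called higher only with the trend removed, and the difference between these fits was itself not tested. Across the nuclear genes the relation with log2 length fell from r = 0.524 to -0.035.

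**Figure D4:**
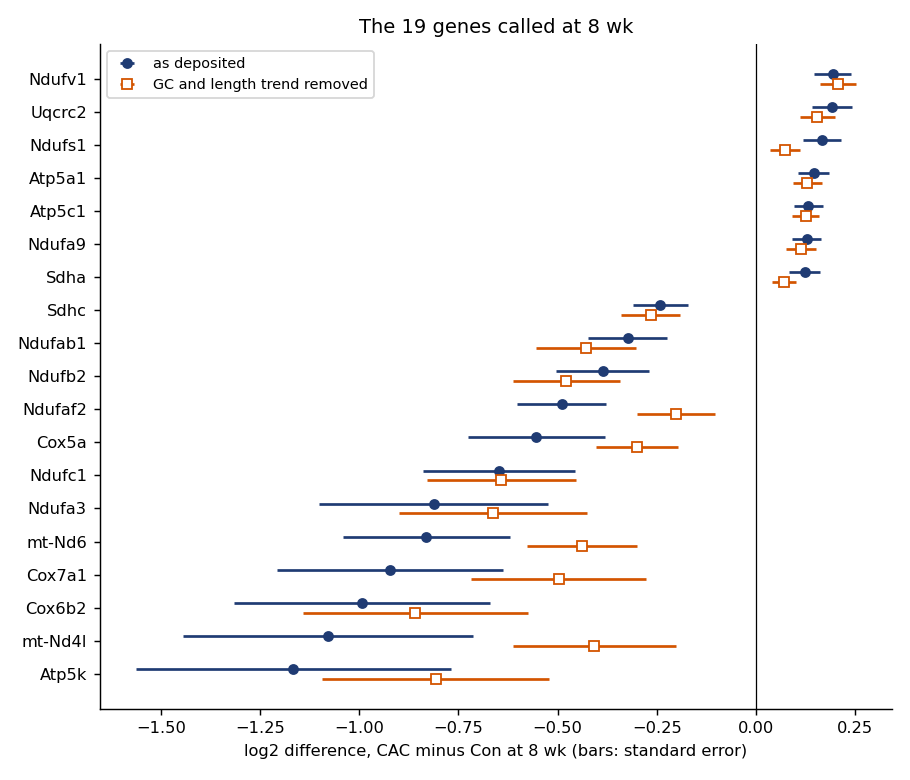
Log2 difference of CAC minus Con at 8 weeks for the 19 called genes, as deposited (filled) and with the GC and length trend removed (open), with standard errors. Ndufv1 stays near 0.2 and Ndufc1 near -0.65 in both, whereas mt-Nd4l moves from -1.08 to -0.41.

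The count and its split also moved with the samples and the scaling. With median-of-ratios scaling 12 genes were called at 8 weeks, Ndufv1 higher and 11 lower, against 9.03% of all genes. When only the CAC and Con libraries of 8 weeks were fitted, 53 were called, 8 higher and 45 lower, against 18.2%. Without CAC replicate 2, the library lowest in mt-Nd6, mt-Nd4l and mt-Atp8 in its group, 7 were called, 5 higher and 2 lower. Without Con replicate 1 there were 6 higher and 6 lower, 12 in all, and without Con replicate 3 5 higher and 4 lower, 9 in all. Without the libraries rich in striatal or blood genes 7 were higher and 4 lower. The excess of lower genes at 8 weeks was thus lost without CAC replicate 2, Con replicate 1, Con replicate 3 or the rich libraries. It was also lost with the trend removed. It was kept with median-of-ratios scaling, with only the groups compared, by voom (1 higher, 17 lower) and with the replicate block (4 higher, 10 lower). The share of all genes called is not given here for the left-out, rich-library, voom and replicate-block fits. Their counts therefore describe the split only, and whether other genes moved alike was not tested. Ndufv1, Uqcrc2, Atp5a1, Ndufa9, Ndufaf2 and mt-Nd6 were called whichever 1 of the 12 CAC and Con libraries was left out.

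Markers of cell types were read at 8 weeks beside the 11.3% of all genes called higher and the 3.2% called lower. Of the hippocampal principal neuron markers 2 of 14 were higher in CAC, with summed levels of 1149 to 1302 TPM against 1089 to 1233 TPM in Con. Of 10 markers each, astrocytes had 2 higher and 1 lower, endothelium 3 higher and 1 lower, microglia 0 higher and 1 lower, and myelinating oligodendrocytes 0 higher and 1 lower. The median log2 difference was -0.32 for oligodendrocyte and -0.21 for both microglial and pericyte markers, beside -0.20 for the nuclear genes of the pathway. No marker of thalamus (11), striatum (13), choroid plexus (12), pericytes (10) or erythrocytes (5 tested) was called by limma. Their part in the result was not tested.

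CAC and NCAC were compared at the same 4 times. No gene of the pathway was called between them at 2, 4 or 8 weeks by limma, where 0.0%, 0.0128% and 1.83% of all genes were called, and 3, 2 and 4 had an unadjusted p under 0.05 (1083, 2185 and 2416 of all 15608 genes), with none called by voom. At 8 weeks the smallest p-values were those of mt-Nd6 (-0.63 ± 0.211) and Ndufaf2 (-0.28 ± 0.112, SE, limma, adjusted p = 0.0989 and 0.195). At 4 weeks they were those of Cox6b2 (-0.85) and Ndufa10 (-0.10), and at 2 weeks those of Ndufa5 (-0.42) and Ndufa4l2 (0.39). At 6 weeks Ndufv1 was called, against 1.77% of all genes. It had 210.4, 208, 202, 220.5 and 198 TPM in CAC and 172, 179, 183 and 175 in NCAC, without overlap, while Con, at 172 to 227 TPM, spanned both. The difference was 0.23 (limma, adjusted p = 0.0231). The count was 0 without CAC replicate 4 or without NCAC replicate 1, 3 or 4, and 2 without CAC replicate 3.

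Between NCAC and Con no gene of the pathway was called at any time by limma, nor was any other gene (0.0% at each of the 4 times), and voom called none of them either. At an unadjusted p under 0.05 there were 45, 42, 4 and 9 of the 105 genes at 2, 4, 6 and 8 weeks, and 1517, 1538, 587 and 1226 of all 15608 genes. The counts at 6 and 8 weeks are near the share of all genes. The nuclear medians were -0.24, 0.24, 0.08 and -0.08. Across the nuclear genes the log2 difference went with log2 length at r = 0.586, -0.481, -0.487 and 0.45 at these times. With the trend removed r was 0.083, 0.103, -0.047 and -0.129. The smallest p-values were those of Ndufa4l2 (-0.64) and Uqcrq (-0.99) at 2 weeks, Atp5h (0.33) and Ndufa7 (0.58) at 4 weeks, Cox7a1 (0.84) and Atp5k (0.97) at 6 weeks, and Ndufs1 (0.16) and Ndufa9 (0.11) at 8 weeks. The comparisons of CAC and of NCAC with Con share the Con libraries, so their values are given side by side only.

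Among controls, 13 genes differed between 8 and 2 weeks, 11 higher and 2 lower at 8 weeks, against 9.67% of all genes, 1.67% higher and 8.0% lower. Cox5b, the zinc-binding subunit of complex IV, had 71.1, 91.0, 95.4, 193 and 109.9 TPM at 2 weeks and 205, 195, 201, 189 and 219 at 8 weeks (0.93, limma, adjusted p = 0.0147). Cox8a, a small subunit of complex IV, had 295, 421, 453, 1047 and 562 TPM and then 1047, 992, 1009.7, 1069 and 1133 (1.05, limma, adjusted p = 0.0286). In both genes 1 of the 5 libraries at 2 weeks was as high as those at 8 weeks. Ndufb2, Cox5a and Atp5g1 were also higher, and Uqcrc2 (-0.17) and Ndufaf4 (-0.19) were lower. With the trend removed none was called, against 0.0798% of all genes, and every single library left out moved the count: to 0, 1, 3, 29 and 6 without Con replicates 1 to 5 of 2 weeks, and to 5, 7, 2, 2 and 2 without those of 8 weeks. The change of CAC minus Con from 2 to 8 weeks was called for no gene by limma, against 0.00641% of all genes, with none by voom. At an unadjusted p under 0.05 there were 9 of the 105 genes and 1505 of all 15608, which is a similar share. Ndufc2 (0.50 ± 0.142) and Cox4i1 (0.27 ± 0.102) had the smallest p (SE, limma, adjusted p = 0.207 and 0.345).

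Of the mitochondrial genes, mt-Nd6, mt-Nd3, mt-Nd4l, mt-Nd2 and mt-Atp6 were those called by the F test over the 12 groups. At 8 weeks mt-Co1 had a lowest, median and highest value of 43017, 47393 and 56037 TPM in CAC, and 50121, 47281, 49558, 48235 and 48874 in Con. Its difference was 0.01 ± 0.0779. Those of mt-Nd1, mt-Nd4, mt-Cytb, mt-Co2 and mt-Co3 lay between -0.08 and -0.03, those of mt-Nd2 and mt-Atp6 were -0.23 and -0.18, and that of mt-Nd5 was 0.16. None of these 9 genes was called in CAC against Con at 8 weeks.

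Several mitochondrial genes overlap on the genome. Polyadenylated transcripts of mt-Atp8 with mt-Atp6, and of mt-Nd4l with mt-Nd4, carry both reading frames on 1 RNA. In the annotation mt-Atp8 and mt-Atp6 share 43 bases, mt-Nd4l and mt-Nd4 share 7, and mt-Nd6, the only protein gene on the other strand, faces mt-Nd5 over 14. Reads in such bases can be assigned to either gene or to none, and whether the counting used strand is not given in the sources used here. Of the 204 bases of mt-Atp8, 161 are its own. The sequences are shown to mark where these overlaps lie. In mt-Atp8 the capitals mark the bases shared with mt-Atp6, and in the last 60 bases of mt-Nd6 those opposite mt-Nd5, both from GENCODE release M21 on GRCm38, in transcript direction.
mt-Atp8 (chrM:7766-7969, strand +): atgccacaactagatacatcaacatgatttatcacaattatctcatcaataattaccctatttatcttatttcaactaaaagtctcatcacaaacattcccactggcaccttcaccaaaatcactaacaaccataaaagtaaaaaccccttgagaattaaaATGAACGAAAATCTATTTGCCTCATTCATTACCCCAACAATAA
mt-Nd6 (chrM:13552-13611, strand -): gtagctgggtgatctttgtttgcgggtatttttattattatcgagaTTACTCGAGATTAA

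Recovered reads of mt-Atp8 ran from 0 in 3 libraries to 21941. The 0 libraries were replicate 2 of CAC and of NCAC at 2 weeks and CAC replicate 3 at 6 weeks, where a count of 0 allows up to 3 reads, for counting error only. All 5 Con libraries at 8 weeks had 7630 to 9101 TPM, and of the other 55 libraries 1, NCAC replicate 5 at 8 weeks with 8703 TPM, reached that range. At 8 weeks CAC had 0.498 TPM in replicate 2 and 2063 to 2733 in the others. In 9 libraries mt-Atp8 had under 100 reads. No comparison of mt-Atp8 passed (CAC against Con at 8 weeks, limma, adjusted p = 0.221). Its log2 level went with the length slope at r = -0.808 (rho = -0.882, permutation p = 1e-05 for each, adjusted p = 1.33e-05), at r = -0.754 without the 2 farthest libraries, and at r = -0.821 within groups.

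mt-Nd6 had a lowest, median and highest value of 86.6, 156 and 183 TPM in CAC at 8 weeks, 183, 145, 267, 207 and 400.0 in NCAC, and 299, 215, 270.5, 284 and 237 in Con. CAC and Con did not overlap, and NCAC spanned both. The log2 difference was -0.83 ± 0.211 (SE, limma, adjusted p = 0.00851), and -0.44 with the trend removed (limma, adjusted p = 0.0357). mt-Nd4l had 1565, 4595 and 4891 TPM in CAC and 8710.2, 7148, 9238, 8689.7 and 7982 in Con, without overlap, and differed by -1.08 ± 0.366 (SE, limma, adjusted p = 0.0397). mt-Nd3 differed by -0.62 ± 0.233 and was not called at 8 weeks (SE, limma, adjusted p = 0.0600). The level of mt-Nd6 also went with the length slope (r = -0.769, rho = -0.755, permutation p = 1e-05 for each, adjusted p = 1.33e-05), with r = -0.736 without the 2 farthest libraries and -0.621 within groups.

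**Figure D5:**
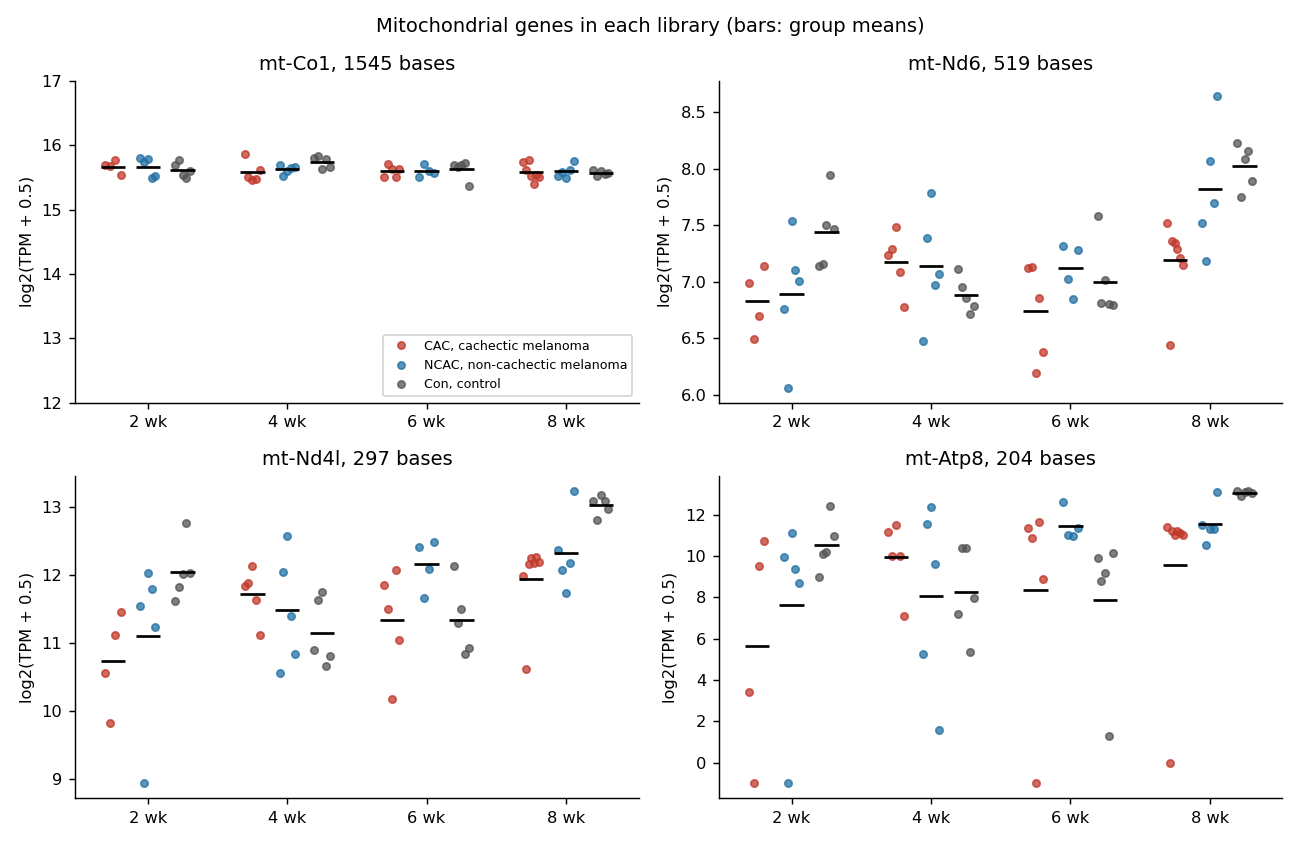
Level of mt-Co1, mt-Nd6, mt-Nd4l and mt-Atp8 as log2(TPM + 0.5) in each library, by weeks after injection, coloured by group, with group means as bars; the scales of the panels differ. mt-Co1 was not called in the F test, and mt-Atp8 falls to 0 reads in 3 libraries and lies at 7630 to 9101 TPM in Con at 8 weeks.

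Spread within groups followed the same order. The median within-group SD of log2(TPM + 0.5) was 0.153 for all tested genes, 0.206 for the nuclear and 0.158 for the mitochondrial genes. Among nuclear genes it was 0.300 under 1000 bases, 0.225 from 1000 to under 2000 and 0.106 from 2000 bases. The steadiest were Ndufa9 and Atp5c1, each with an SD of 0.059, and Atp5b, the catalytic beta subunit of ATP synthase, with 0.060.

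Promoters were read for all nuclear genes with an entry. Of the 92 nuclear genes, 73 had a promoter in the RefSeq table (GRCm38.p6), taken from 250 bases before to 50 after the start. On either strand, the NRF1 core GCGCATGC was found in 12 of the 73 genes, against 2.71% of all 32851 promoters, the YY1 motif AAGATGGC in 9 of 73 against 2.75%, and the GABP motif CCGGAAGT in 5 of 73 against 3.89%. Some genes had more than 1 promoter, which raises their chance of a match, and these shares are descriptions without a test. Called both with and without the trend removed were 8 genes at 2 weeks, 3 at 4 weeks and 11 at 8 weeks, and 5 of these genes held a match, with no motif common to all 5. Their promoters are shown to give the place of each match: Uqcr11 and Atp5j, lower at 2 weeks, Atp5g2, higher at 4 weeks, and Ndufa9, higher, and Ndufc1, lower, at 8 weeks. Each runs in the direction of the gene, and capitals mark the matches, which in Atp5g2 are 2 that overlap on opposite strands.
Uqcr11 (chr10:80406772-80407071, strand -): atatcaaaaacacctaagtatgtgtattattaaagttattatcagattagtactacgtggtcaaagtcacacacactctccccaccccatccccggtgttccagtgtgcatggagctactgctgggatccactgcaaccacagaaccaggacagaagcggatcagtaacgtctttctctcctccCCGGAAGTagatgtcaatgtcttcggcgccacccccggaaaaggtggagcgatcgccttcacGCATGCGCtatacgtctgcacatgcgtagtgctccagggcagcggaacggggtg
Atp5j (chr16:84834927-84835226, strand -): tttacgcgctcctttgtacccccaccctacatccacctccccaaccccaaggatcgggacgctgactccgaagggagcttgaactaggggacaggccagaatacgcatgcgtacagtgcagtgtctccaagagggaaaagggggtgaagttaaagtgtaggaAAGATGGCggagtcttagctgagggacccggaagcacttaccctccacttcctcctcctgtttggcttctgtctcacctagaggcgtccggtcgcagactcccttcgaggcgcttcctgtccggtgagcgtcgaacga
Atp5g2 (chr15:102670998-102671297, strand -): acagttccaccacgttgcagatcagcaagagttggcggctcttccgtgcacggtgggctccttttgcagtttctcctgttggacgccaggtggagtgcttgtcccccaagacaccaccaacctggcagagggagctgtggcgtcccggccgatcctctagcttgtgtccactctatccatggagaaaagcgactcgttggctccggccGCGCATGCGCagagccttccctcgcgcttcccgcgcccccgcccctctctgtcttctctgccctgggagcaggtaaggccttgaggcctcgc
Ndufa9 (chr6:126849095-126849394, strand -): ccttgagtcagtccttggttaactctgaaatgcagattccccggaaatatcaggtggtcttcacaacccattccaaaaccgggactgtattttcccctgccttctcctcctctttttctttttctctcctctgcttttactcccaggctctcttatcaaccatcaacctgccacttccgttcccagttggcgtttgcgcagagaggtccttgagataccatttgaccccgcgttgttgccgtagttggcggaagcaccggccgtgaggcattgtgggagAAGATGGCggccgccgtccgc
Ndufc1 (chr3:51408906-51409205, strand -): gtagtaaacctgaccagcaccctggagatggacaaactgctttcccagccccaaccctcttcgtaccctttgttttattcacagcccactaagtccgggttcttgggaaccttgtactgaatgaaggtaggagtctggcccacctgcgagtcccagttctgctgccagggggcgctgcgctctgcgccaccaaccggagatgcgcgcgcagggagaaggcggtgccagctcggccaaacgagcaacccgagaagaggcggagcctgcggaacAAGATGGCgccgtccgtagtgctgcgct
Ndufa9 and Ndufc1 hold the same YY1 letters 29 and 22 bases after the start and differed in opposite directions at 8 weeks. In Uqcr11 the GABP letters begin at -66 and the NRF1 letters at -4.

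Genes around the pathway were read from lists, here and below as deposited only, without the GC and length trend removed. The genes named as higher are 2588 to 8504 bases long, and Slirp, named as lower, 3104. Of all tested genes of 2000 bases or more, 13.5% were higher and 2.27% lower at 8 weeks. The part of length in these differences was not tested. Of 24 tested genes of the citric acid cycle and pyruvate dehydrogenase, 7 were higher and none lower in CAC than in Con at 8 weeks, where 11.3% of all genes were higher and 3.2% lower, with a median of 0.10 beside 0.05 for all genes. Pdk4, a kinase that shuts off pyruvate dehydrogenase, had 31.1 ± 8.68 TPM (SD, n = 7) in CAC and 14.7 ± 0.581 (SD, n = 5) in Con, a log2 difference of 1.00 ± 0.195 (SE, limma, adjusted p = 0.00142). Idh2, the mitochondrial NADP-dependent isocitrate dehydrogenase, had 64.7 ± 8.35 against 48.9 ± 2.26 TPM (0.39), and Dlat and Pdhx, of the pyruvate dehydrogenase complex, differed by 0.21 and 0.15. Of 19 carriers and exchangers of the inner and outer membranes 4 were higher: Slc25a12, the aspartate-glutamate carrier, by 0.22, the carrier gene Slc25a27 by 0.20, and the outer membrane channels Vdac1 and Vdac2 by 0.18 and 0.10.

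Of 16 regulators of mitochondrial biogenesis and RNA, 2 were higher and 1 lower, a share of higher genes near the 11.3% of all genes. Lrpprc, which stabilises mitochondrial mRNA, was higher by 0.22 and its partner Slirp lower by -0.53, from 15.8 ± 1.16 TPM (SD, n = 5) in Con to 11.1 ± 2.34 (SD, n = 7) in CAC. Tfb2m, a mitochondrial transcription factor, was higher by 0.31, and Tfam, which packs mitochondrial DNA, differed by 0.15 without passing (limma, adjusted p = 0.0577). Of 35 assembly factors outside the naming rule, 3 were higher, Cox15, Foxred1 and Atpaf1, by 0.16 to 0.19, a share below that of all genes, and Cox20 differed by -0.39 (limma, adjusted p = 0.0538).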

How the data were processed

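Hippocampal RNA was extracted with Trizol and sequenced from stranded mRNA libraries, per the labels' protocols. The authors deposited TPM values per gene symbol on build mm10, per the submitters' processing notes; the sources used here do not name the aligner, the counting tool or a strand setting. Whole reads were recovered from the TPM steps (tolerance 0.02 reads), which gave 32388197 to 42047145 reads per library, and gene lengths were read from the same steps. For 72 of the 105 genes this length equals the union of all annotated exons in GENCODE M21. Such a union can be longer than a single transcript.

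Genes with at least 1 TPM in at least 4 libraries were tested (15608). The tool was limma (version 3.58.1, run under R version 4.3.3) and its input log2(TPM + 0.5), with a trended prior, 12 group means, 2-sided tests and Benjamini-Hochberg adjustment. On data simulated for CAC against Con at 8 weeks over 15608 genes, 77 of 100 genes changed by 0.5 on the log2 scale and 90 of 100 changed by 1 were recovered, with 11 false calls. The simulated noise was independent between genes and held no length slope, so these figures do not cover calls that go with that slope. Correlations and figures used Python 3.11.15, scipy 1.17.1 and matplotlib 3.10.9.

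The genes, lists and tests were chosen with earlier results of these data known. Named were all mitochondrial and Sdh genes, the highest gene of each complex, isoform pairs, up to 8 genes in each direction with the smallest p for CAC against Con and against NCAC at 8 weeks, up to 5 in other comparisons, the 2 smallest p where none passed, and up to 4 genes per related list. Genes called beyond these numbers at 8 weeks, those that differed between the fits with and without the trend, Atp5b and the promoters shown were named after their values were seen. Alternatives were other pseudocounts, filters, scalings, samples in the fit, removal of a GC and length trend by splines, limma voom on recovered reads, a replicate block, and leaving out libraries.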

Additional observations from a re-analysis of the deposited data

Results flagged for a closer look

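Of 57 groups of libraries looked at for a library far from the others, 3 had one, and chance flags about 1 in 20 groups. The mitochondrial share of TPM was 26.49% in CAC replicate 1 at 4 weeks, where the other 4 libraries had 19.45 to 20.85%. It was lowest in Con replicate 2 at 8 weeks, at 21.75% against 23.9 to 24.66%. The nuclear share was 1.873% in Con replicate 5 at 6 weeks, against 1.388 to 1.475% in the others.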

How the results depend on the processing

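Counts of called genes moved by over 1.5 times as follows. The share of all genes called is given above for only some of these settings, and for no fit with a single library left out. CAC against Con at 2 weeks gave 20 with no filter on low values, 9 with the GC and length trend removed, and 0 with only the groups compared or without the libraries rich in striatal or blood genes. At 4 weeks it gave 1 with no filter, 1 by voom and 0 without those libraries. At 8 weeks it gave 12 with median-of-ratios scaling, 12 with mitochondrial genes out of the library total, 53 with only the groups compared and 11 without those libraries. CAC against NCAC at 6 weeks gave 0 with only the groups compared and 2 with the trend removed. Con at 8 against 2 weeks gave 7 with no filter, 43 with only the groups compared, 0 with the trend removed and 2 without those libraries. Leaving out single libraries gave 0 to 52 at 2 weeks, 0 to 8 at 4 weeks and 7 to 21 at 8 weeks for CAC against Con, 0 to 2 for CAC against NCAC at 6 weeks, and 0 to 29 for the controls. The cause was not tested.

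With the replicate block the count was 20 for CAC against Con at 2 weeks, 0 for CAC against NCAC at 6 weeks and 0 for the controls. The numbers do not pair the libraries: deviations of 56 same-numbered pairs correlated at -0.285 to 0.345, with a median of -0.008. Among named genes, 729 values kept their direction and side of the threshold under other settings, 233 no longer passed and 2 reversed, Ndufa10 in CAC against NCAC at 4 weeks (0.0214 without the rich libraries) and Ndufaf4 in the controls (0.0119 with the trend removed). Depth limits 9 genes with under 100 reads in some library, the 7 minor isoforms, mt-Atp8 and Ndufaf6.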
